A study of Mus musculus with 4 samples.

Results

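Antioxidant, glutathione and thioredoxin genes were followed in mouse yolk sac with and without a conditional deletion of Etv2. The list names 35 genes, chosen by gene symbol: the enzymes that remove superoxide and peroxides, those that make or use glutathione, the thioredoxin system, and the NRF2 regulator with its inhibitor. All probes carrying one of these symbols in the platform annotation were taken, which gave 63 probes for 31 of the genes, out of 19057 genes with a named probe. The other 4 listed genes (Gsr, Prdx5, Prdx6 and G6pdx) were not analysed here.

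Total RNA came from yolk sacs of embryonic day 9.5, strain C57BL/6, and was read on 4 Illumina bead arrays. There were 2 groups of 2 arrays. The first is labelled Flk1Cre;ETV2 CKO, in which loxP sites at Etv2 were recombined by a Cre named for Flk1 (the gene Kdr), so that deletion is directed to cells with a history of FLK1. The second is labelled Control and marked WT in the sample descriptions, and whether these embryos carried Cre or loxP alleles is not stated in the labels. Neither are sex, litter or pooling of embryos, so a p-value here reflects how far these samples scattered, which can be a technical scatter. An exact 2-sided permutation test of 2 against 2 arrays cannot give a p below 0.333, so no single gene can pass on its ranks alone.

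Cells make superoxide and hydrogen peroxide whenever they respire. Superoxide dismutases turn superoxide into hydrogen peroxide, and catalase, glutathione peroxidases and peroxiredoxins then break the peroxide down. Glutathione peroxidases draw on glutathione, peroxiredoxins draw on thioredoxin, and both are recharged at the expense of NADPH by their reductases. The transcription factor NRF2, encoded by Nfe2l2 and held down by KEAP1, switches on many of these genes. Red cells, which fill the yolk sac at this stage, carry oxygen bound to heme iron and are known to be rich in peroxiredoxin 2, glutathione peroxidase 1 and catalase.

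Values below are normalized log2 intensities, each difference is the CKO-labelled mean minus the control mean, given ± limma's standard error (n = 2 a group), and a gene was called at a limma adjusted p under 0.05 over 10603 tested genes. Of 45281 probes, 17934 to 18798 per array exceeded background. The probe of Etv2 itself was higher on the CKO-labelled arrays (0.46 ± 0.10, adjusted p = 0.0199), against the direction of the labels. That call was lost in 4 of 13 alternatives, among them the authors' values (0.13) and 3 of the 4 fits that leave out an array. Whether it lies inside the deleted part is not known here, so group names rest on the labels. Marker genes also moved between the groups. Red cell markers were lower in 11 of 16 tested genes (median -0.60) with 0 higher. Parietal endoderm markers were higher in 10 of 11 (median 0.93), all but Thbd (-0.12). Genes of basement membrane proteins, such as Lama1, Nid1 and Col4a1, are among the 10 and are not particular to 1 cell type. Markers of mesothelium and mesenchyme were higher in 8 of 11 (median 0.57). The mesothelium and mesenchyme count fell to 4 without CKO-labelled replicate 1 and to 5 without either control array. Of 15 yolk sac visceral endoderm markers, Afp, Ttr and Apoa1 among them, 0 passed limma's test in either direction, 1 had an unadjusted p under 0.05, and each was above background on all 4 arrays.

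On the CKO-labelled arrays 4 of the 31 members were lower and 7 were higher, and 20 did not pass the test. Of all tested genes 10.8% were lower and 14.4% higher, 25.2% in either direction, so the members' shares of 12.9% and 22.6% stood near or somewhat above the background. Prdx3, Nfe2l2, Txnrd2 and Sod2 fell, while Gpx7, Mgst1, Sod3, Gpx2, Cat, Txn1 and Gsta4 rose. The differences were of modest size, from -0.71 for Prdx3 to 0.90 for Gpx7, and the median over the members was 0.14 against 0.02 over all genes tested. The arrays of the groups did not overlap for 26 members (83.9%), 10 with the CKO-labelled arrays below and 16 with them above. Over all tested genes 65.4% did not overlap, 29.7% below and 35.7% above. Replicates lay close together, with a median within-group SD of 0.067 over the members and 0.097 over all tested genes. Under median scaling between arrays 1 member was lower (Prdx3) and 6 were higher, against 6.12% lower and 14.5% higher over all tested genes. Without any one array the members' median stood between 0.094 and 0.13.

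**Figure D1:**
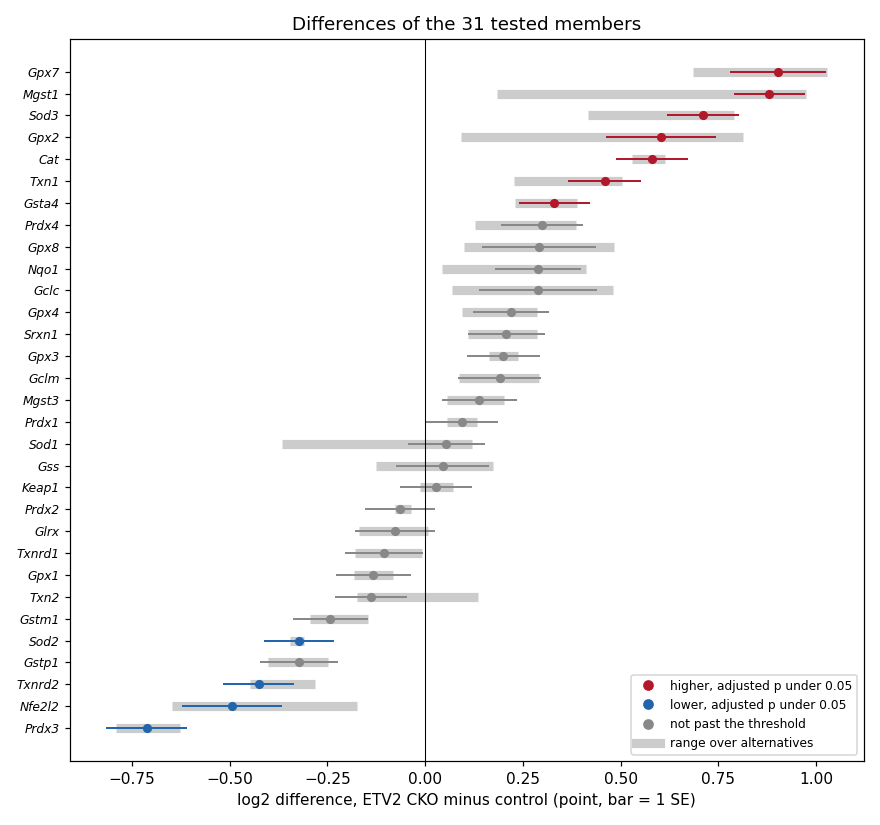
The horizontal axis is the log2 difference between CKO-labelled and control arrays for the 31 tested members, with 1 standard error as a thin bar and the range over the alternative processing settings as a grey band. Prdx3 lies lowest at -0.71 and Gpx7 highest at 0.90, and the grey band of Sod1 crosses 0 down to -0.37.

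Among the 6 glutathione peroxidases, 2 rose, none fell and 4 did not pass. Gpx7 encodes a peroxidase of the endoplasmic reticulum that works with protein disulfide isomerase during disulfide formation. Its normalized log2 intensity was 9.81 and 9.66 on the CKO-labelled arrays and 8.70 and 8.96 on the control arrays. Both CKO-labelled arrays thus stood above both controls, by 0.90 ± 0.12 (1.87-fold, limma adjusted p = 0.00490), and the difference passed under each of 13 alternatives. Gpx2, which encodes a selenoprotein best known from the gut epithelium, read 5.60 and 5.48 against 5.12 and 4.75. It rose by 0.60 ± 0.14 (1.52-fold, limma adjusted p = 0.0256). The probe was dim, being above background on 1 of the 2 control arrays, and it did not pass on the authors' values (0.092), without background correction (0.17), or without either CKO-labelled array or control replicate 2.

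Gpx8, the membrane-bound relative of Gpx7 in the endoplasmic reticulum, stood at 0.29 ± 0.15 by its brightest probe and at 0.37 and 0.41 by its other 2 probes, and did not pass (limma adjusted p = 0.192). Its CKO-labelled arrays read 10.28 and 10.45 and its controls 9.89 and 10.27, so control replicate 2 came close to the CKO-labelled arrays. Gpx3, the secreted plasma peroxidase, stood at 0.20 ± 0.09, and Gpx4, which reduces peroxidised membrane lipids and guards against ferroptosis, at 0.22 ± 0.10, and neither passed. The second bright probe of Gpx4 gave 0.27, and its dimmest probe, exceeding background on 1 of 2 arrays with the CKO label, gave -0.20. Gpx1, the cytosolic form, had the lower sign at -0.13 ± 0.10.

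Of the 5 peroxiredoxin and sulfiredoxin genes measured, Prdx3 fell, none rose and 4 did not pass. Prdx3 encodes the peroxiredoxin of the mitochondrial matrix. The CKO-labelled arrays read 9.81 and 9.90 and the controls 10.49 and 10.65. The 2 groups were well apart, with a difference of -0.71 ± 0.10 (1.64-fold lower, limma adjusted p = 0.00572). Over the 13 alternatives it ranged from -0.79 to -0.63 and always passed, which no other lower member did.

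Prdx4, the peroxiredoxin of the endoplasmic reticulum, pointed the other way. It read 13.23 and 13.17 against 12.81 and 12.99, a difference of 0.30 ± 0.10 that did not pass (limma adjusted p = 0.0819) although the arrays did not overlap. A dim second probe of Prdx4 stood at -0.05. The cytosolic Prdx1 was at 0.09 and Prdx2 at -0.07, and Srxn1, which repairs overoxidised peroxiredoxins, was at 0.21. None of these passed. The dimmer probes of Srxn1 stood at 0.02 and 0.10.

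Of the 5 genes of thioredoxins, their reductases and glutaredoxin, Txn1 rose, Txnrd2 fell and 3 did not pass. Txn1, the cytosolic thioredoxin that also feeds electrons to ribonucleotide reductase, read 11.41 and 11.50 on the CKO-labelled arrays and 10.98 and 11.01 on the controls. It rose by 0.46 ± 0.09 (1.37-fold, limma adjusted p = 0.0167). A second, dim probe of Txn1 stood at -0.01, and with the kept probes averaged the difference was 0.23 and did not pass. Without any one of the 4 arrays it stood between 0.42 and 0.50 and did not pass. Txnrd2, the mitochondrial thioredoxin reductase, read 8.49 and 8.46 against 8.90 and 8.90 and fell by 0.43 ± 0.09 (1.34-fold lower, limma adjusted p = 0.0192). Its dimmer probe gave -0.41, with overlapping arrays. Under median scaling the value was -0.36 and did not pass, nor did it with any one array left out.

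Txn2, the mitochondrial thioredoxin that Txnrd2 recharges, stood at -0.14 ± 0.09 and did not pass, with both CKO-labelled arrays below both controls. Another Txn2 probe was below background on both control arrays and at least 1.06-fold higher with the CKO label, untested. Txnrd1, the cytosolic reductase, was at -0.11 ± 0.10. Glrx, which removes glutathione from protein thiols, was at -0.08 ± 0.10, with overlapping arrays.

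The 3 superoxide dismutases differed from each other. Sod3, secreted and bound to the extracellular matrix, read 8.64 and 8.60 with the CKO label and 7.89 and 7.93 in the controls. The arrays of a group nearly coincided, and the difference of 0.71 ± 0.09 (1.64-fold, limma adjusted p = 0.00421) passed under each of 13 alternatives. Sod2, the manganese enzyme of mitochondria, read 12.10 and 12.12 against 12.44 and 12.43. It fell by 0.32 ± 0.09 (1.25-fold lower, limma adjusted p = 0.0430), a call lost in 7 of 13 alternatives, in which the value stayed between -0.35 and -0.31. Sod1, the copper and zinc enzyme of the cytosol, stood at 0.05 ± 0.10 by its bright probe, with overlapping arrays. A dim Sod1 probe, which exceeded background on 1 of 2 arrays with the CKO label, stood at -0.78.

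Cat encodes catalase, the peroxide-splitting enzyme of peroxisomes and red cells. The CKO-labelled arrays read 10.81 and 10.76 and the controls 10.23 and 10.18, again with the groups well apart. The rise of 0.58 ± 0.09 (1.50-fold, limma adjusted p = 0.00760) passed under each of 13 alternatives, and a dimmer probe gave 0.53.

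**Figure D2:**
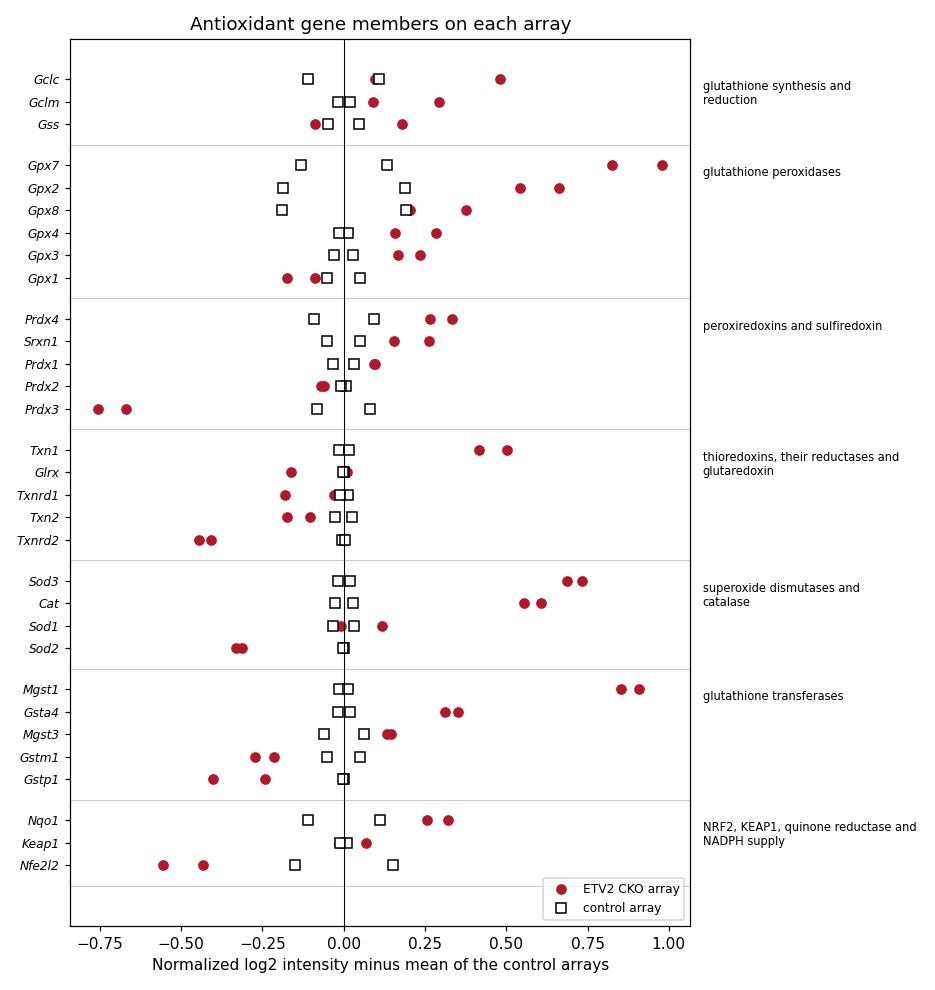
Each point is 1 array's normalized log2 intensity for a member minus the mean of the control arrays, with CKO-labelled arrays as red circles, control arrays as open squares and members grouped by role. Cat, Sod3, Mgst1 and Gpx7 have both red circles far to the right of the squares and Prdx3 far to the left, while Gss, Glrx and Sod1 have circles and squares mixed.

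Glutathione synthesis showed no call among the 3 genes measured, and none had an unadjusted limma p under 0.05. Gclc and Gclm, the catalytic and modifier subunits of the rate-limiting ligase, stood at 0.29 ± 0.15 and 0.19 ± 0.11. Both values leaned on single arrays, with Gclc at 0.097 and Gclm at 0.087 without CKO-labelled replicate 2, and 0.48 and 0.29 without replicate 1. Gclc had the widest spread between replicates among the members (SD 0.22). Gss, which completes glutathione, stood at 0.04 ± 0.12, while its other 2 kept probes gave -0.05 and -0.37.

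Among the 5 glutathione transferases, 2 rose, none fell and 3 did not pass. Mgst1, a membrane-bound transferase of the endoplasmic reticulum and outer mitochondrial membrane, read 6.34 and 6.39 against 5.47 and 5.50. The groups were well apart, at 0.88 ± 0.09 (1.84-fold, limma adjusted p = 0.00239). The probe was dim, with raw signals of 174 and 195 against 127 and 136, so the fold depends on the background correction. A second Mgst1 probe was below background on both control arrays and was at least 1.29-fold higher. On the authors' values the Mgst1 difference was 0.18 and still passed. Gsta4, which clears reactive aldehydes of lipid peroxidation, read 9.09 and 9.05 against 8.72 and 8.76 and rose by 0.33 ± 0.09 (1.26-fold, limma adjusted p = 0.0415), a call lost in 7 of 13 alternatives.

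Gstp1 and Gstm1, the pi and mu class transferases, had the opposite sign. Gstp1 was at -0.32 ± 0.10 (limma adjusted p = 0.0580) and its other probes at -0.14 and -0.40, each with the CKO-labelled arrays below the controls. Gstm1 was at -0.24 ± 0.10 (limma adjusted p = 0.111). Both belong to families of close copies, so the probes may read related transcripts. Mgst3 stood at 0.14 and did not pass, and its other bright probe stood at -0.03 with overlapping arrays.

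**Figure D3:**
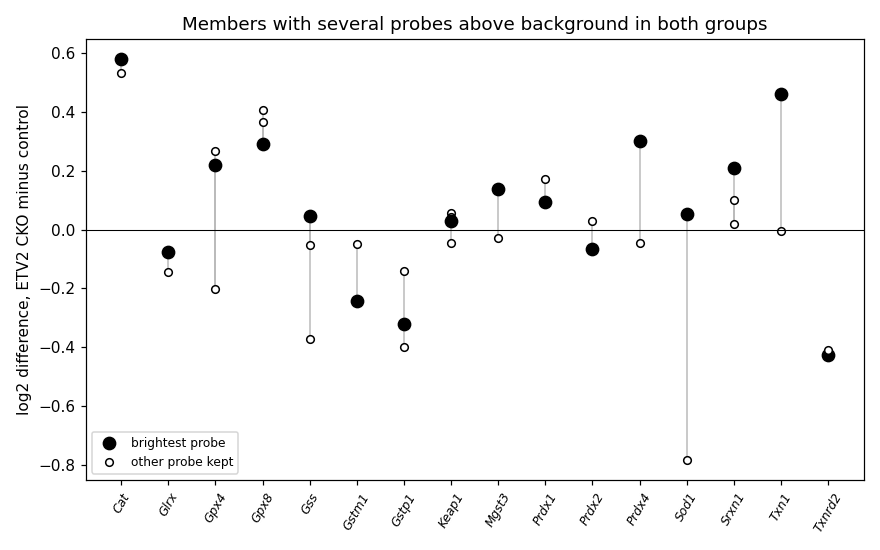
Each column is a member with several probes above background in both groups, the vertical axis is the log2 difference between CKO-labelled and control arrays, and the large filled circle is the brightest probe, which stands for the gene. Probes of Cat and Txnrd2 lie together, while those of Sod1 and Txn1 lie apart, and for 8 of 16 such members the probes differ in sign.

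Nfe2l2, which encodes NRF2, fell. The CKO-labelled arrays read 6.76 and 6.64 and the controls 7.04 and 7.34, a difference of -0.49 ± 0.13 (1.41-fold lower, limma adjusted p = 0.0341). The raw signals, 200.5 and 213 against 205 and 254, overlapped before background correction and normalization. The call was lost in 6 of 13 alternatives: on the authors' values (-0.17), under median scaling (-0.39), with no filter on dim probes (-0.49), and without CKO-labelled replicate 1 (-0.56), replicate 2 (-0.43) or control replicate 2 (-0.34). Keap1, which marks NRF2 for degradation, stood at 0.03 ± 0.09, and its other 3 kept probes lay between -0.05 and 0.06. Nqo1, a quinone reductase and a standard readout of NRF2, was at 0.29 ± 0.11 and did not pass (limma adjusted p = 0.102), with 1 of the control arrays above background.

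The promoter windows of these genes show where the letters that NRF2 is known to bind occur. RefSeq promoter sequences (GRCm38.p6), from 250 bases before to 50 bases after each annotated start, matched 28 of the 31 members. The core of the antioxidant response element, TGACNNNGC on either strand, was present in 7 of the members' 36 windows, which belong to 7 of those 28 genes, and in 12.4% of all 32851 windows. The 7 were Gclm, Mgst1, Nfe2l2, Prdx1, Sod1, Srxn1 and Txnrd1, of which Mgst1 rose, Nfe2l2 fell and 5 did not pass. A match is a description of letters and not evidence of binding. The stretches of 41 bases around the match that lie before the start are printed for 6 of them, since they let called and uncalled members be compared. Capitals mark the core or its reverse complement.
Nfe2l2, chr2:75704873-75704913, minus strand: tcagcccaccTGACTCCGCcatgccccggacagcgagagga
Mgst1, chr6:138140455-138140495, plus strand: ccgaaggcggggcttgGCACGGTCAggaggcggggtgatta
Prdx1, chr4:116685450-116685490, plus strand: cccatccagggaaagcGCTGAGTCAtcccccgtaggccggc
Gclm, chr3:122245407-122245447, plus strand: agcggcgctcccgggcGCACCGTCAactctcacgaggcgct
Txnrd1, chr10:82859098-82859138, plus strand: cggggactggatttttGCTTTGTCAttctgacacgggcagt
Sod1, chr16:90220690-90220730, plus strand: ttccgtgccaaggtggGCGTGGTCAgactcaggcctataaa
The core began 240 bases before the start in Nfe2l2, 134 in Gclm, 133 in Prdx1, 92 in Txnrd1 and 56 in both Mgst1 and Sod1. The letters AGATAA, a core of the sites that GATA factors are known to bind, occurred on either strand in the window of 1 member, Keap1, and in 11.2% of all windows.

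Sorted by compartment, a grouping made after the values had been seen and therefore not tested, 9 of the 31 members fall into 2 sets. Of all tested genes, 29.7% had the CKO-labelled arrays below the controls and 35.7% above, while 10.8% were called lower and 14.4% higher. By their brightest probes, all 4 genes of mitochondrial enzymes (Prdx3, Txnrd2, Sod2 and Txn2) had the CKO-labelled arrays below the controls. Of these, 3 were called lower. Under median scaling Txnrd2 and Sod2 lost their calls. Txnrd2 lost its call also with probes averaged, where Txn2 stood at 0.14. Sod2 lost its call also with no filter on dim probes and with the replicate number as a block. The median of all 4 was -0.37. As a mean over these genes relative to the control arrays, the 2 CKO-labelled arrays stood at -0.40 and -0.40 and the controls at -0.01 and 0.01. By contrast, all 5 genes of enzymes in the endoplasmic reticulum or outside the cell (Gpx7, Sod3, Prdx4, Gpx8 and Gpx3) had the CKO-labelled arrays above the controls, and 2 of them were called higher, with a median of 0.30. The CKO-labelled arrays stood at 0.48 and 0.48 and the controls at -0.09 and 0.09. In both sets the 2 control values mirror each other because the control mean was subtracted. The 22 members in neither set were mixed, with 6 below, 11 above and 5 overlapping, 1 called lower and 5 higher, and a median of 0.12. Mgst1, which works in both the endoplasmic reticulum and the outer mitochondrial membrane and rose by 0.88, is among those 22. Gpx4 at 0.22 and Gpx1 at -0.13, whose products occur in mitochondria as well as elsewhere, are there too. Among genes outside the members whose products are known to work in mitochondria, Mthfd2 was lower (-1.06 ± 0.11). Me2 (0.37 ± 0.10) and Gstk1 (0.63 ± 0.09), whose product also works in peroxisomes, were higher. These are examples and not all such genes. Glrx5 at -0.07, Glrx2 at 0.15, Msrb2 at 0.20 and Idh2 at 0.30 did not pass. Outside genes of the endoplasmic reticulum or secreted products were mixed too, again as examples. Txndc12 was higher (0.53 ± 0.10), and Txndc5 at 0.20 did not pass. Tmx1 at -0.11, Selenos at -0.04 and Selenop at -0.10 had overlapping arrays and did not pass.

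Beside these groups, marker genes of several cell types moved. The summed linear intensity of the 16 red cell markers was 101229 and 101415 with the CKO label and 111350 and 110914 in the controls, with Epb42 not above background. That sum was mostly the globin genes Hba-x, Hba-a1, Hbb-y and Hbb-bh1, with signals at 85.5% to 100% of the brightest on their array. Without these 4 the other 12 markers summed to 12957 and 12597 with the CKO label and 22020 and 20772 in the controls, 11 of them lower. For the 11 parietal endoderm markers it was 32513 and 33327 against 19001 and 18828, and for the 11 markers of mesothelium and mesenchyme 31279 and 31768 against 25201 and 24842, with Postn not above background. Endothelial markers were lower in 3 of 9 genes and higher in 1, with Kdr not above background, and macrophage markers were lower in 1 of 7 and higher in 3, with Adgre1 not above background. The part of cell make-up in the members' differences was not tested. In RNA of whole tissue, fewer cells of a type and less RNA per cell cannot be told apart.

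**Figure D4:**
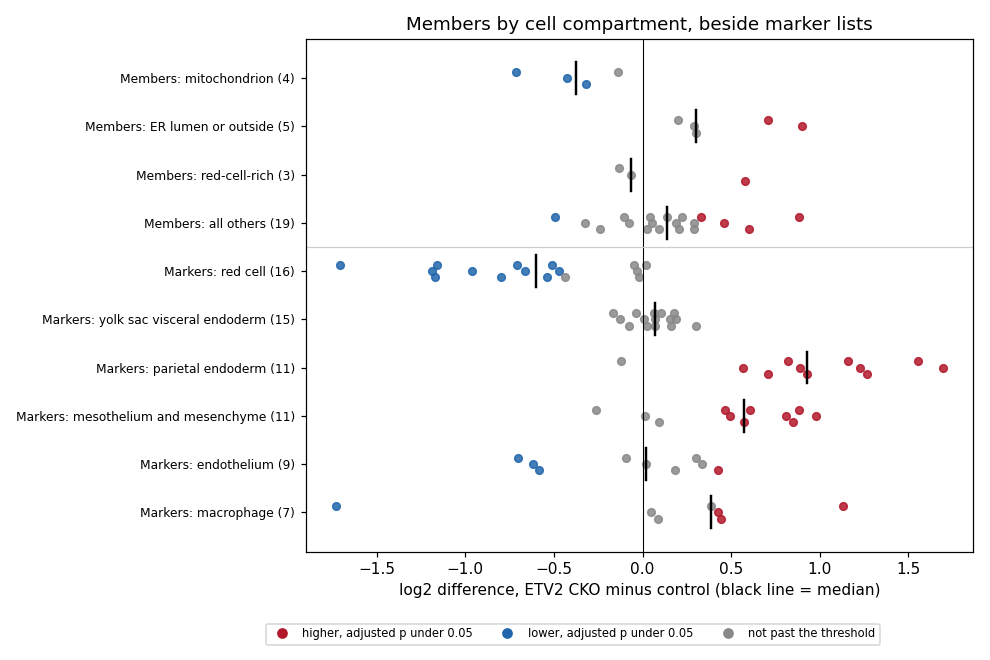
Each point is a gene's log2 difference between CKO-labelled and control arrays, coloured by call, with members grouped by compartment above the line and marker lists below it, and black lines at the medians. By their brightest probes, the 4 members counted as mitochondrial lie left of 0, with a median of -0.37. The 5 members of the endoplasmic reticulum or outside the cell lie right of 0, with a median of 0.30. Both sets were formed after the values had been seen, so their sides were not tested.

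The enzymes known to be abundant in red cells did not move as one. Catalase transcript rose as given above, while Prdx2 stood at -0.07 ± 0.09 and Gpx1 at -0.13 ± 0.10, and neither passed the test. Prdx2 read 13.78 and 13.76 with the CKO label and 13.84 and 13.83 in the controls. Its other 2 probes gave -0.07 and 0.03. Gpx1 read 14.14 and 14.06 against 14.18 and 14.28. In both cases the CKO-labelled arrays lay just below the controls, without passing the test. The 95% intervals of these differences, from limma's standard errors, ran from -0.28 to 0.15 for Prdx2 and from -0.37 to 0.10 for Gpx1. Gpx1 signals stood at 73.4% to 86.0% of the brightest signal of their array, and Prdx2 signals at 58.2% to 63.4%. The highest Gpx1 signal reached the range of the globin gene Hba-x (85.5% to 91.7%), so a change in Gpx1 could have been read too small. The intervals do not allow for that. Catalase signals stood at 5.10% to 8.05%.

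The median difference of Prdx2, Gpx1 and Cat was -0.07, against 0.16 for the other 28 members, a gap of -0.23 with no test. That median is the value of Prdx2 itself, so the rise of Cat (0.58) does not enter the gap. The gap therefore does not describe the red-cell-rich enzymes as a group. On single arrays that gap, relative to the control means, was -0.19 and -0.22 for the CKO-labelled arrays and 0.01 and -0.01 for the controls. The red cell markers in the same samples, for which the median was -0.60, included Klf1 at -1.19 ± 0.10 and Gata1 at -1.16 ± 0.11, both lower. The embryonic globin genes Hbb-y at 0.02 and Hba-x at -0.05 did not pass, but their signals stood so near the brightest on the array that a change could have gone unmeasured.

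Outside the members, further genes of the same pathways were described from fixed lists. Over all tested genes 25.2% were called, 10.8% lower and 14.4% higher. The called share was 17.2% in the glutathione list, 22.2% in the thioredoxin list and 16.7% in the NRF2 list. It was 40% in the NADPH list and 12.5% in the selenoprotein synthesis list. Of 29 tested genes that use, export or recycle glutathione, 1 was lower and 4 were higher, and the median was -0.01. Ggct, which breaks down gamma-glutamyl peptides, fell by 0.75 ± 0.09, with a range of -0.81 to -0.36 over the alternatives. The transferase genes Gstk1 and Gstm2 rose by 0.63 ± 0.09 and 0.53 ± 0.10, and the exporter gene Abcc4 by 0.49 ± 0.09. Ggct and Gstk1 passed under each of 13 alternatives, whereas Gstm2 lost its call in 2 and Abcc4 in 3 of the fits without 1 array. Oplah, which recycles glutamate from oxoproline, was below background on the control arrays and at least 1.14-fold higher with the CKO label, a call lost in 5 of 12 alternatives, among them the authors' values (0.077) and no background correction (0.15). Without 1 array the list had 2 to 3 higher genes. The cystine carrier gene Slc7a11 was not above background.

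Of 18 thioredoxin partners and methionine repair genes, 4 rose and none fell, with a median of 0.02. Sesn3, which encodes a stress-induced sestrin, rose by 1.24 ± 0.13 (2.35-fold, limma adjusted p = 0.00256). It read 7.10 and 7.41 with the CKO label and 5.95 and 6.10 on the controls. Over the alternatives its difference ranged widely, from 0.38 to 1.40. Txndc12, of the endoplasmic reticulum, rose by 0.53 ± 0.10, and Txnip, the inhibitor that binds thioredoxin, and Sesn1 rose by 0.35 and 0.34. Sesn3 passed under each of 13 alternatives, Txndc12 lost its call in 2, Txnip in 7 and Sesn1 in 5, the last pair in all 4 fits without 1 array. Without 1 array the list had 1 to 2 higher genes.

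Among 24 NRF2 partners, regulators and targets outside the members, 2 were lower and 2 higher, with a median of -0.04. Blvrb, the biliverdin and flavin reductase abundant in red cells, fell by 0.54 ± 0.09, and Osgin1 was below background on the CKO-labelled arrays and at least 1.43-fold lower. Me1, the cytosolic malic enzyme that makes NADPH, rose by 0.66 ± 0.11 and the porphyrin transporter gene Abcb6 by 0.36 ± 0.10. Over the alternatives the Me1 difference ranged from 0.32 to 0.785. Blvrb and Me1 passed under each of 13 alternatives. Osgin1 lost its call in 5 of 12, with -0.10 on the authors' values and -0.42 without control replicate 1, and Abcb6 lost its call in 5 of 13, all 4 fits without 1 array included. Without 1 array the list had 1 to 2 lower and 1 to 2 higher genes. The heme oxygenase gene Hmox1, another standard target, stood at -0.17 and did not pass.

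NADPH supply outside the members gave 2 lower and 2 higher genes of 10, with a median of 0.07. Mthfd2, the mitochondrial folate enzyme, fell by 1.06 ± 0.11 (2.08-fold lower, limma adjusted p = 0.00270). Within the pentose phosphate pathway Rpia fell by 0.94 ± 0.09 and Rpe rose by 0.50 ± 0.11. Mthfd2 and Rpia passed under each of 13 alternatives, but Rpe and Me2 each lost their call in 4, so that without 1 array 0 to 1 genes of the list were higher. Mthfd2 read 10.24 and 9.99 with the CKO label and 11.21 and 11.14 in the controls, and Rpia 8.93 and 8.91 against 9.87 and 9.84, in both cases without overlap. Of 8 selenoprotein synthesis genes, 1 was lower, Scly, the lyase that recovers selenium from selenocysteine, at -0.52 ± 0.10, a call lost in 3 of the 4 fits without 1 array.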

How the data were processed

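RNA of 4 yolk sac samples was measured on Illumina bead arrays. The authors deposited probe signals as linear intensity values without background subtraction, as judged from the values, each with a detection p-value that per the file headers stands beside its array. A second deposited table holds processed intensity values brought to 1 distribution (median 201.4 on each array), used as an alternative. How it was made is not stated in the labels. In the submitters' processing notes lumi 2.15.1 is named, with no role. No sample column was left out (0).

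Signals were processed with neqc of limma 3.58.1 (R 4.3.3; offset 16, quantile, log2). Probes detected at p under 0.05 on at least 2 of 4 arrays were kept (18817), and the brightest named probe stood for a gene. Genes were fitted with lmFit and eBayes with group as the only term, and 2-sided p-values were adjusted by Benjamini and Hochberg's method across 10603 genes (6.54 degrees of freedom). For a probe below background in a group, the bound compares the bright group's mean with a floor, per array the higher of the probe's signal and the lowest one detected above background. The platform annotation gives 1 symbol to 34885 probes, several to 18 and none to 10378. Looking up entrez identifiers in a RefSeq table (GRCm38.p6) changed 0 symbols. Same-numbered samples did not clearly deviate together (correlation 0.067 of deviations from group means). The fit was tested on simulated data with independent noise and fewer changed genes than were called here, so no result here rests on it. The number of arrays limits the precision of each value.

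Members and lists were chosen with earlier results of these data known. All members are accounted for. From each further list up to 4 genes of largest change past the threshold are named, and from marker lists examples. Other genes, the selenoprotein and compartment groupings, and the genes named as not past the test were chosen after their values were seen.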

Additional observations from a re-analysis of the deposited data

How the results depend on the processing

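Over 13 alternatives, 335 of the members' values kept direction and side of the threshold, 36 lost and 21 gained a call, and 8 changed sign. Gpx7, Prdx3, Sod3 and Cat passed under each of the 13, and Mgst1 under each of 12, being untested where detection on all arrays at p under 0.01 was asked. The members higher were 7, but 11 with an intensity trend in eBayes and 4 to 5 without 1 array. The members lower were 4, but 1 under median scaling, 2 with no filter on dim probes and 1 to 2 without 1 array. With the intensity trend 19.2% of all tested genes were higher, against 14.4% in the fit described. Lower were 6.12% of all tested genes under median scaling and 4.76% with no filter on dim probes, against 10.8%. The fits without 1 array assume that the lone array of a group varies like the other group. Over all genes the 1144 lower and 1527 higher calls became 649 and 1535 under median scaling (57.2% and 70.3% of calls higher) and, without 1 array, 521 to 630 and 724 to 969. The members' median, 0.14 in the fit described, stood at 0.093 without background correction, 0.068 on the authors' values, 0.13 with median scaling, 0.074 with the strict detection filter, 0.11 with probes averaged, and 0.094 to 0.13 without 1 array. The gap between the medians of the red-cell-rich enzymes and the rest, -0.23, stood at -0.17 without background correction. It was -0.15 with probes averaged and also on the authors' values, and -0.21 with an offset of 50 and with median scaling. With the strict filter it was -0.16, and without 1 array -0.21 to -0.19. With probes averaged Gss stood at -0.13, Txn2 at 0.14 and Sod1 at -0.37 (limma adjusted p = 0.0338), each mean including a dimmer probe of the other sign, and Hbb-y at -0.033. Without 1 array Gss ranged from -0.088 to 0.17, Glrx from -0.17 to 0.0079, Keap1 from -0.014 to 0.070, Sod1 from -0.0080 to 0.12 Msrb2 from -0.14 to 0.22, Selenow from -0.018 to 0.18 and Hbb-y from -0.024 to 0.079. With the replicate number as a block (replicate block), 3 members were lower and 6 higher, Sod2 and Gsta4 losing their calls. The numbers are shared by name only, so this is no paired design. Of 130 counts in the further lists 36 moved by over 1.5 times, and of 156 in the marker lists 28. The slide as a block was not run, since the sources used here give no slide. The cause of these changes was not tested where none is named.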

Other observations

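Among the members, 6 encode selenoproteins, whose active site holds selenocysteine (Gpx1, Gpx2, Gpx3, Gpx4, Txnrd1 and Txnrd2). Gpx2 rose, Txnrd2 fell and 4 did not pass, with 3 below and 3 above the controls and a median of 0.05. The called share was 33.3%, against 25.2% over all tested genes, of which 29.7% lay below and 35.7% above. Gpx2 lost its call on the authors' values and without background correction, and Txnrd2 under median scaling and with probes averaged. The selenium carrier gene Selenop stood at -0.10 ± 0.11 and Selenow at 0.08 ± 0.11, and neither passed the limma test.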
